A study of Mus musculus with 12 samples.

Results

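Amino acid transporters of the solute carrier families Slc1, Slc3, Slc7, Slc36, Slc38 and Slc43 were followed in activated mouse T cells treated with azacitidine (AzaC). Genes were taken by symbol: a symbol of these families followed by a number, on a row of the table with exactly 1 gene symbol, and the row with the highest mean where a gene had several. The rule found 44 of the 22180 genes. Of these, 42 are transporter genes: 7 of Slc1, 2 of Slc3, 15 of Slc7, 4 of Slc36, 11 of Slc38 and 3 of Slc43. The other 2, Slc7a6os and Slc36a1os, are named for the strand opposite a transporter gene and were kept out of the counts. The name of the group does not hold for every member, since Slc43a3 is known as a purine nucleobase transporter and Slc7a4 and Slc7a14 are poorly characterised.

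The series comprises 12 Affymetrix arrays of total RNA from sorted cells, in 4 groups of 3. Natural regulatory T cells (nTregs, Foxp3-expressing cells that restrain immune responses) and CD4 effector T cells (CD4 cells below) were cultured together, with 1 part nTregs to 10 parts effector T cells. Beads carrying anti-CD3 and anti-CD28 activated the culture over 2 days in IL-2 at 500 U/mL, and 1 µM AzaC or PBS was then present for 2 days more. The question was how AzaC acts on nTregs and on effector cells, in a study of graft-versus-host disease. The medium was supplemented with L-glutamine in all groups, and both populations of a treatment shared it. Per the protocol, the nTregs came from spleens of B6.Foxp3GFP mice, and the effector cells came from a cross of these with mice that carry DsRed under the CAG promoter. The strain label gives the DsRed cross for the nTreg arrays too, which goes against the protocol. The nTregs were sorted as CD4+ DsRed- Foxp3GFP+ and the effector cells as CD4+ DsRed+ Foxp3GFP-. The labels give no age of the animals. They leave unsaid whether arrays of a group stand for separate animals or separate cultures, and p-values therefore cover only the spread among these samples, which may be technical.

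AzaC, an analogue of cytidine, enters RNA and DNA and inhibits DNA methyltransferases. Resting T cells carry few amino acid transporters, and activation through the T cell receptor raises several of them, because growing T cells take up glutamine, leucine and arginine for protein and nucleotide synthesis. The exchanger for large neutral amino acids is a pair of proteins: the light chain Slc7a5 (LAT1) carries leucine and its relatives, and the heavy chain Slc3a2 (CD98) brings it to the cell surface. Amino acids that enter are sensed at the lysosome by mTORC1, and a shortage is reported by uncharged tRNA through the transcription factor Atf4.

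The values are log2 signals from RMA, a method that corrects background, equalises the distributions of the arrays and summarises the probes of a gene. A difference of 1 is a factor of 2 in signal. Differences with an adjusted p under 0.05 in limma (Benjamini-Hochberg, all 22180 genes) are said to pass or to be called, and "rose" and "fell" are used only of such differences. Array medians were 6.67 to 6.80. The labelled cell types were checked against marker lists. All 5 of 5 Treg markers were higher in nTregs under both treatments by limma, with Foxp3 means of 12.34 and 12.69 in nTregs against 8.05 and 9.62 in CD4 cells, in the order PBS and AzaC. Cd4 was lower in nTregs under PBS by a log2 difference of −0.83, which passed. Its signal was 10.37 to 11.08 on those arrays against 11.64 to 11.71 in CD4 cells. With AzaC its difference of −0.40 did not pass. Of 3 measured T cell markers, 1 was called lower in nTregs under PBS and 0 with AzaC. Of all genes, 8.01% and 6.75% were called in these comparisons. Averages over 3 B cell markers (6.12 to 6.43) and over 2 NK cell markers (5.64 to 6.46) were low in all arrays. The first PBS array of nTregs stood apart, with a standard deviation of 0.26 from its group mean over all genes against 0.11 to 0.19 in the other 11 arrays. Where a call was lost without it, this is said below.

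A signal on an array is never at 0, and the probes of different genes respond differently, so signals of different genes are not ranked here. As a gauge of the signal that silent genes leave, 22 measured genes of other tissues had means of 4.47 to 7.80 (median 5.93, 95th percentile 7.37). Means over all arrays lay above 7.37 for 17 of the 42 transporter genes and below it for 25. The 17 were Slc1a5, Slc3a1, Slc3a2, Slc7a1, Slc7a5, Slc7a6, Slc36a1, Slc36a4, Slc38a1, Slc38a2, Slc38a6, Slc38a7, Slc38a9, Slc38a10, Slc43a1, Slc43a2 and Slc43a3. They include carriers well known in activated T cells: Slc1a5 and Slc38a1 and Slc38a2 for glutamine and small neutral amino acids, Slc7a5 with Slc3a2 for leucine, and Slc7a1 for arginine. The 25 below include the glial glutamate transporters Slc1a2 (5.96) and Slc1a3 (5.38), the cystine exchanger Slc7a11 (5.07) and the kidney exchanger Slc7a9 (5.78).

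**Figure D1:**
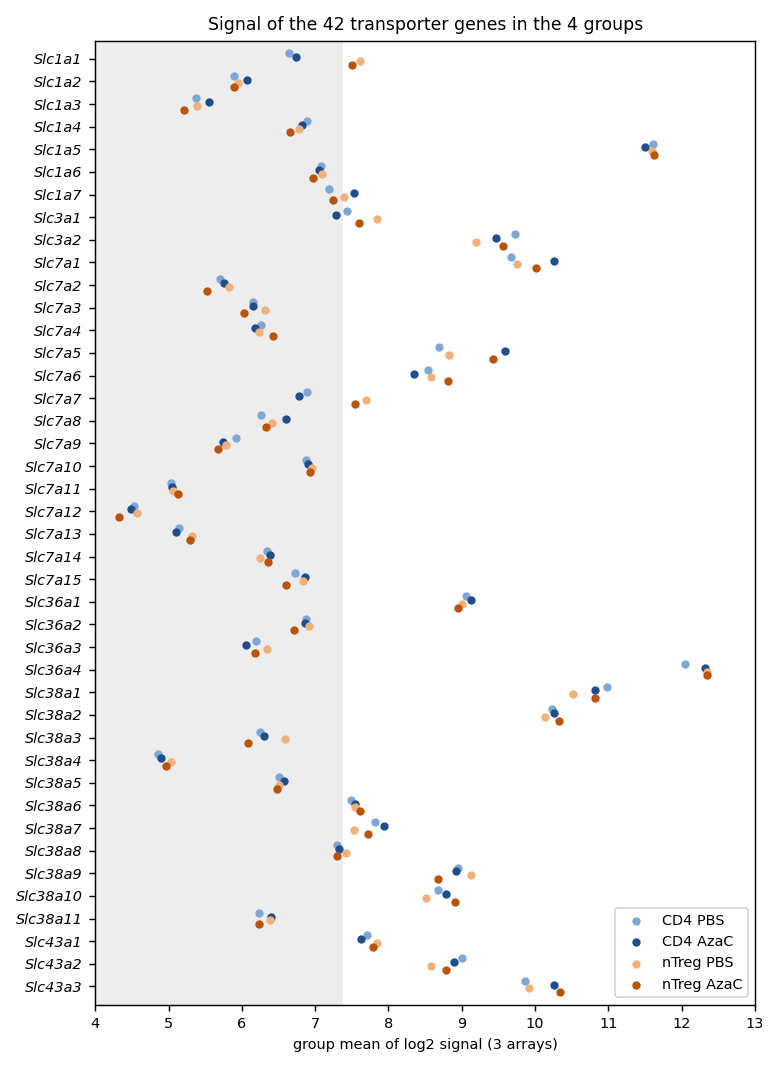
Mean log2 signal (horizontal axis, 3 arrays per mean) of the 42 transporter genes in the 4 groups, by family. The shaded range reaches up to 7.37, the 95th percentile of 22 genes of other tissues. For most genes the 4 means lie close together; Slc1a1 and Slc7a7 are further right in nTregs, and Slc7a5 and Slc7a1 are further right with AzaC.

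In CD4 cells, AzaC raised 2 of the 42 transporter genes, the leucine carrier Slc7a5 and the arginine carrier Slc7a1, and lowered 0. Over all genes 1.76% were called in limma, which is less than 1 gene in 42. At an unadjusted p under 0.05 stood 5 of the 42, against 3375 of 22180 genes. The median log2 difference was 0.03 for the transporters and 0.01 for all genes, and 24 of the 42 differences were positive. The signals of treated and control arrays did not overlap for 7 of the 42, against 23.6% of all genes. Some Treg markers moved in the same comparison. The list average (5 of 5 measured) was 10.02 to 10.06 in the PBS arrays and 10.44 to 10.49 in the AzaC arrays. Of the 5, 2 passed: Foxp3 rose by 1.57 and Il2ra by 0.59. The median difference of the list was 0.06, with 4 differences positive and 1 negative. The part of these markers in the transporter results was not tested. In bulk RNA, a change in the share of cells of a type and a change in RNA per cell cannot be told apart.

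In nTregs, AzaC raised 0 of the 42 and lowered 1, Slc38a3, at an adjusted p under 0.05 in limma, where 2.02% of all genes were called. At an unadjusted p under 0.05 stood 9 of the 42, against 3720 of 22180. Positive differences numbered 15 of 42, and the median was −0.06 against −0.04 for all genes. Groups without overlap numbered 10 of 42, against 24.5% of all genes. Other sets of markers moved with the treatment. The average of the CD8 markers (2 of 2 measured) was 8.35 to 8.96 in PBS arrays and 9.62 to 9.75 in AzaC arrays. Cd8a was up by 1.39 and Cd8b1 by 0.72, although the sort took CD4+ cells. Under PBS the means of the 2 markers were 6.86 and 10.42 in nTregs and 6.85 and 10.15 in CD4 cells. Without AzaC, 1 of them thus lay above the range of the genes of other tissues in both populations. The average of the myeloid markers (5 of 5) was 7.06 to 7.12 under PBS and 6.53 to 6.76 with AzaC, and Itgam fell by 0.94. Their part in the results below was not tested.

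The AzaC responses of the populations were compared directly by the difference between them. It passed for 0 of the 42 transporter genes in limma, with 8 at an unadjusted p under 0.05. Of all genes, 0.203% passed, and 3871 were at an unadjusted p under 0.05. No transporter gene is therefore shown to respond differently in nTregs and in CD4 cells. The widest gaps were a difference of 0.63 for Slc3a2 (SE 0.25, 95% interval 0.10 to 1.16, adjusted p = 0.233) and of −0.56 for Slc38a3 (SE 0.15, −0.88 to −0.23, adjusted p = 0.159).

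The response averaged over both populations, a comparison added after the values were seen, passed for 3 of the 42, all higher: Slc7a5, Slc7a1 and Slc43a3. Of all genes 3.71% passed, and 6 transporter genes against 3374 genes stood at an unadjusted p under 0.05. Slc7a5 and Slc7a1 already passed in CD4 cells, whose arrays enter this average, so only Slc43a3 is added by it.

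**Figure D2:**
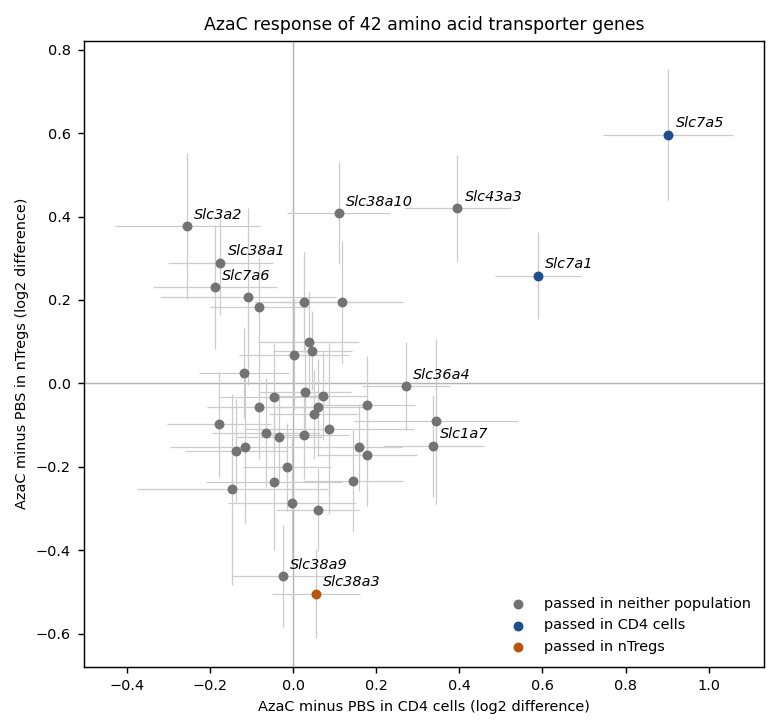
Log2 difference AzaC minus PBS of each transporter gene in CD4 cells (horizontal) and in nTregs (vertical), with bars of 1 SE. Most of the 42 genes lie near the origin. Slc7a5 lies at 0.90 and 0.60, Slc7a1 at 0.59 and 0.26 and Slc43a3 at 0.40 and 0.42, and Slc38a3 lies at 0.06 and −0.50.

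Between the populations, under PBS, 2 of the 42 transporter genes were higher in nTregs and 1 was lower, against 8.01% of all genes called in limma. The higher ones were the glutamate carrier Slc1a1 and the light chain Slc7a7, and the lower one was the glutamine carrier Slc38a1. At an unadjusted p under 0.05 stood 6 of 42, against 5100 of 22180, and the signals did not overlap for 8 of 42, against 26.7% of all genes. With AzaC, Slc1a1 and Slc7a7 were again higher and 0 were lower, where 6.75% of all genes were called. Unadjusted p-values under 0.05 numbered 8 of 42, against 4546 of all genes, and 14 of 42 did not overlap, against 32.3%. The medians over the transporters were 0.06 under PBS and −0.04 with AzaC, against 0.03 and −0.04 over all genes. The PBS comparison shares its arrays with the AzaC comparisons, so its values are set beside them and not joined with them.

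The light chain Slc7a5 gave log2 signals of 8.72, 8.81 and 8.53 in CD4 cells under PBS and of 9.44, 9.81 and 9.53 with AzaC. All 3 treated arrays were above all 3 controls. It rose by 0.90 (SE 0.16, 95% interval 0.57 to 1.24, adjusted p = 0.00895 in limma), a factor of 1.87, and passed under all 19 alternatives tried, with differences of 0.79 to 0.98. In nTregs, Slc7a5 gave 8.50, 9.12 and 8.87 under PBS and 9.23, 9.51 and 9.53 with AzaC. Again no arrays overlapped, but the gap between the highest control and the lowest treated array was small, and the first PBS array was the lowest. The difference of 0.60 (SE 0.16, 95% interval 0.26 to 0.93, adjusted p = 0.0705) did not pass. The responses of the populations differed by −0.31 (SE 0.22, interval −0.78 to 0.17, adjusted p = 0.468), so a smaller response in nTregs was not shown. Between populations, Slc7a5 differed by 0.14 under PBS and by −0.17 with AzaC, and neither passed.

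The heavy chain Slc3a2, the partner of Slc7a5 at the surface, gave 9.80, 9.74 and 9.63 in CD4 cells under PBS and 9.22, 9.65 and 9.54 with AzaC. The groups overlapped, and the difference was −0.25 (SE 0.17, 95% interval −0.63 to 0.12, adjusted p = 0.504 in limma). In nTregs it gave 8.73, 9.33 and 9.50 under PBS and 9.44, 9.73 and 9.52 with AzaC, a difference of 0.38 (SE 0.17, adjusted p = 0.294). The lowest value is that of the first PBS array of nTregs, the array that stood apart. Under PBS all nTreg arrays were below all CD4 arrays, with a difference of −0.54 (SE 0.17, adjusted p = 0.0775) that did not pass.

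The partners were also compared within each array, where the log2 signal of Slc7a5 minus that of Slc3a2 was −1.07, −0.94 and −1.11 in CD4 cells under PBS and 0.22, 0.15 and −0.01 with AzaC. The groups did not overlap, and the within-array difference moved by 1.16. An exact two-sided permutation test gave p = 0.1, the smallest that 3 against 3 arrays allow. In nTregs the within-array difference was −0.23, −0.21 and −0.63 under PBS and −0.22, −0.22 and 0.02 with AzaC. These groups overlapped, and the move of 0.22 gave an exact permutation p of 0.3. This measure was chosen after the values were seen, and a within-array difference shows unequal change, not the amounts of the proteins.

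**Figure D3:**
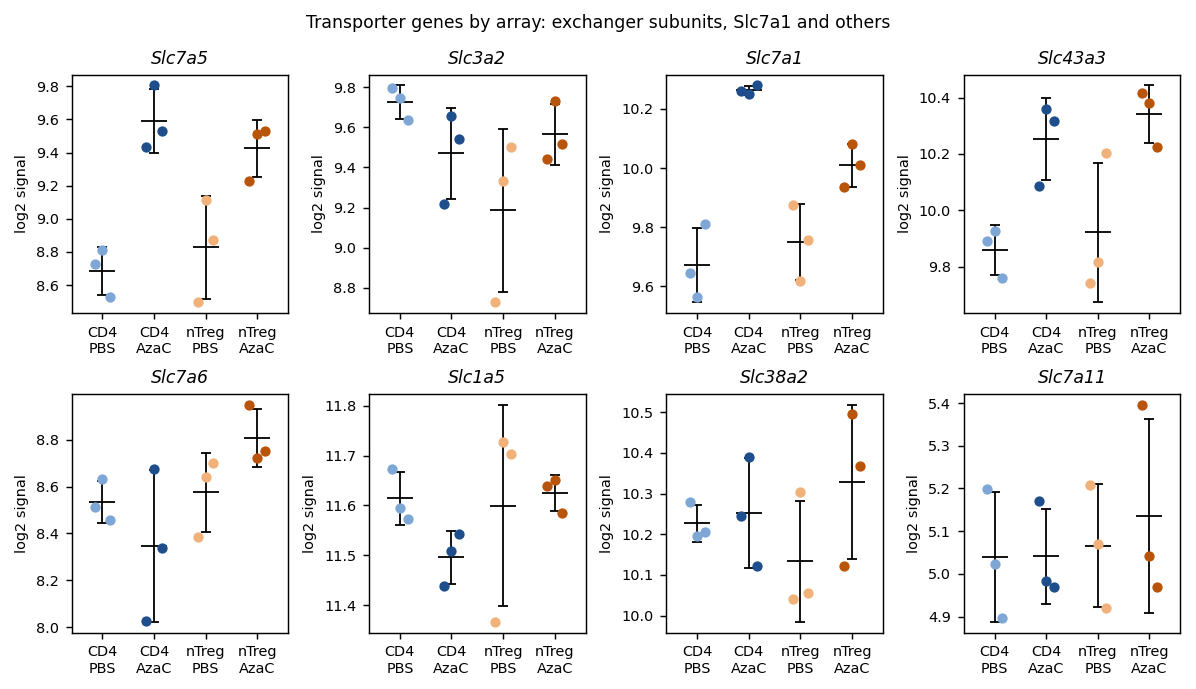
Log2 signal (vertical axis) of 8 transporter genes on each array, by group; points are arrays, horizontal lines are means and bars are 1 SD (3 arrays). The AzaC arrays of Slc7a5, Slc7a1 and Slc43a3 lie above the PBS arrays in both populations, Slc3a2 and Slc38a2 overlap in both, and Slc7a11 stays between 4.90 and 5.39.

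Among the other 9 light chains, 1 passed in any comparison, Slc7a7, described with Slc1a1 below. Slc7a6 (y+LAT2), which exchanges arginine for neutral amino acids with Slc3a2, gave 8.51, 8.63 and 8.46 in CD4 cells under PBS and 8.03, 8.68 and 8.34 with AzaC. The nTreg arrays gave 8.38, 8.64 and 8.70 under PBS and 8.95, 8.72 and 8.75 with AzaC. The first AzaC array of CD4 cells was the lowest of the 12 and the first AzaC array of nTregs the highest. With AzaC, all nTreg arrays were above all CD4 arrays, by 0.46 (SE 0.15, adjusted p = 0.0849 in limma), which did not pass. Slc7a11 (xCT), the cystine and glutamate exchanger and a target of Atf4, gave 5.20, 5.02 and 4.90 in CD4 cells under PBS and 5.17, 4.98 and 4.97 with AzaC. Its nTreg values were 5.21, 5.07 and 4.92 under PBS and 5.39, 5.04 and 4.97 with AzaC. All groups overlapped within the range of the genes of other tissues, and the AzaC differences were 0.00 in CD4 cells and 0.07 in nTregs. The remaining light chains, Slc7a8, Slc7a9, Slc7a10, Slc7a12, Slc7a13 and Slc7a15, had means between 4.48 and 6.92. Slc3a1, the heavy chain of the kidney cystine exchanger, had a mean of 7.54 and AzaC differences of −0.15 in CD4 cells and −0.25 in nTregs, neither of which passed.

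Of the cationic carriers, Slc7a1 (CAT1), the main arginine importer of many cells, gave 9.64, 9.56 and 9.81 in CD4 cells under PBS and 10.26, 10.25 and 10.28 with AzaC. The treated arrays lay close together and all above the controls. Slc7a1 rose by 0.59 (SE 0.10, 95% interval 0.37 to 0.81, adjusted p = 0.00944 in limma), a factor of 1.51. The call was lost in 1 of 19 alternatives, without the second PBS array of CD4 cells (0.54, adjusted p = 0.0544). In nTregs it gave 9.88, 9.62 and 9.76 under PBS and 9.94, 10.08 and 10.01 with AzaC, again without overlap. That difference of 0.26 (SE 0.10, adjusted p = 0.228) did not pass, and the responses of the populations differed by −0.33 (SE 0.15, adjusted p = 0.264). The other 4 members of the role, Slc7a2, Slc7a3, Slc7a4 and Slc7a14, had means of 5.70 to 6.33. Slc7a2, the arginine importer of activated macrophages, differed by −0.30 in nTregs without overlap (adjusted p = 0.149) and by 0.06 in CD4 cells.

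AzaC acts on the methylation of cytosines that are followed by guanines, and DNA methylation was not measured here. To show where such CpG sites lie in the members that passed, promoter windows are printed from RefSeq on GRCm38.p6, each 300 bases from 250 before to 50 after an annotated start, with CpG in capitals. Windows were found for 31 of the 42 transporter genes (42 windows). Slc7a5, Slc38a1, Slc38a3 and Slc43a3 are not among them. Slc7a1 has 2 annotated starts on the minus strand of chromosome 5, the upstream one at chr5:148399855-148400154 with 27 CpG sites and the downstream one at chr5:148392766-148393065 with 7. The median over 32851 windows of all genes was 7 sites, with quartiles of 3 and 20.
Slc7a1, upstream start: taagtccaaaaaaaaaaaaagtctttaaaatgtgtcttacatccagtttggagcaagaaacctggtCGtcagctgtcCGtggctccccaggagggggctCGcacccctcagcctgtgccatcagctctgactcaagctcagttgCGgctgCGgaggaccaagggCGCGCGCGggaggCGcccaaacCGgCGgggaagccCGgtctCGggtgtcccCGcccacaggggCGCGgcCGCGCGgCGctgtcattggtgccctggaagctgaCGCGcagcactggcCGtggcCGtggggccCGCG
Slc7a1, downstream start: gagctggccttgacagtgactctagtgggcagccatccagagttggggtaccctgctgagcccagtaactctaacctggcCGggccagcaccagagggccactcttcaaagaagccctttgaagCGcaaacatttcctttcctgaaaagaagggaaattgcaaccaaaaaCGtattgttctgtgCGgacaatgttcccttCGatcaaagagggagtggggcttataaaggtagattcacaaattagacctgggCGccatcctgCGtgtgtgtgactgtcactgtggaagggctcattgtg
Most CpG sites of the upstream window lie toward its 3′ end, and those of the downstream window are scattered. The core of the amino acid response element that Atf4 binds, TGATGNAA on either strand, was in 4 of the 42 transporter windows and in 3.97% of all windows. The E-box CACGTG, a motif bound by Myc, was in 7 of the 42 and in 7.15% of all windows. Neither stands in the Slc7a1 windows. Windows with the response element core belong to Slc1a4, Slc7a7 and Slc7a11. For Slc7a7, overlapping windows share a match, so that site is counted more than once. A match is only a description of the letters.

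The sodium-coupled carriers of the Slc38 family import glutamine, alanine and other small neutral amino acids. Slc38a1 (SNAT1), which imports glutamine, gave 10.99, 11.02 and 10.94 in CD4 cells under PBS and 10.23, 10.61 and 10.73 in nTregs under PBS. All nTreg arrays were below all CD4 arrays, and the first nTreg array was the lowest. Slc38a1 was lower in nTregs by a log2 difference of −0.46 (SE 0.13, 95% interval −0.73 to −0.19, adjusted p = 0.0386 in limma). This call was lost in 9 of 19 alternatives: without the first nTreg PBS array the difference was −0.32 (adjusted p = 0.105), and with only the groups compared in the fit its adjusted p was 0.148. It was also lost without any single CD4 PBS array (adjusted p 0.0804 to 0.107), without the second nTreg PBS array (0.0511) and without any single nTreg AzaC array (0.0536 to 0.0564). With AzaC, Slc38a1 gave 10.86, 10.92 and 10.65 in CD4 cells and 10.82, 10.87 and 10.74 in nTregs. Those groups overlapped, with a difference of 0.00 (SE 0.13, interval −0.27 to 0.27). AzaC minus PBS was −0.18 in CD4 cells and 0.29 in nTregs, and the difference between these responses was 0.46 (SE 0.18, adjusted p = 0.23).

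Slc38a2 (SNAT2), which many cells raise when amino acids run short, gave 10.28, 10.20 and 10.21 in CD4 cells under PBS and 10.25, 10.39 and 10.12 with AzaC. Its nTreg values were 10.04, 10.30 and 10.06 under PBS and 10.12, 10.49 and 10.37 with AzaC. The groups overlapped in both populations, with AzaC differences of 0.03 (95% interval −0.23 to 0.28) in CD4 cells and 0.19 (−0.06 to 0.45) in nTregs. Slc38a3 (SNAT3), a glutamine carrier of liver, kidney and brain, gave 6.46, 6.66 and 6.64 in nTregs under PBS and 6.15, 6.06 and 6.05 with AzaC. All treated arrays were below all controls, and it fell by 0.50 (SE 0.11, 95% interval −0.73 to −0.27, adjusted p = 0.0285 in limma). In CD4 cells it gave 6.15, 6.33 and 6.25 under PBS and 6.19, 6.24 and 6.47 with AzaC, which overlap. All 12 values lie under 7.37, within the range of the genes of other tissues. The call was lost in 7 of 19 alternatives: with arrays centred on their median (−0.44, adjusted p = 0.0565), with only the groups compared (0.0891), without PBS array 2 (0.0731) or 3 (0.0678) of nTregs, and without AzaC array 1 (0.0689), 2 (0.117) or 3 (0.118) of nTregs.

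Slc38a9, the arginine sensor of the lysosome that signals to mTORC1, gave 9.41, 9.01 and 8.97 in nTregs under PBS and 8.54, 8.68 and 8.78 with AzaC. The treated arrays were all below the controls, and the difference of −0.46 (SE 0.12, adjusted p = 0.0725 in limma) did not pass. In CD4 cells, 9.06, 8.92 and 8.87 under PBS overlapped 8.88, 8.93 and 8.96 with AzaC, a difference of −0.02. Slc38a10 gave 8.27, 8.57 and 8.68 in nTregs under PBS and 8.87 or more on each array with AzaC (mean 8.91), a difference of 0.41 without overlap that did not pass (adjusted p = 0.117). Its second row on the array, with a mean of 6.36, went the other way in nTregs (−0.11), so the rows of this gene disagree. The other 6 members, Slc38a4, Slc38a5, Slc38a6, Slc38a7, Slc38a8 and Slc38a11, passed in no comparison, with AzaC differences from −0.15 (Slc38a11) to 0.20 (Slc38a7) in nTregs and from 0.03 (Slc38a8) to 0.16 (Slc38a11) in CD4 cells.

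Of the Slc1 family, Slc1a5 (ASCT2), the neutral amino acid exchanger through which activated T cells take up glutamine, gave 11.67, 11.60 and 11.57 in CD4 cells under PBS and 11.44, 11.51 and 11.54 with AzaC. The nTreg signals were 11.37, 11.73 and 11.70 under PBS and 11.64, 11.65 and 11.58 with AzaC. The CD4 groups did not overlap but lay close, at −0.12 (SE 0.11, 95% interval −0.35 to 0.11), and the nTreg groups overlapped, at 0.03 (interval −0.21 to 0.26). Neither passed in limma (adjusted p = 0.624 and 0.924). Its relative Slc1a4 (ASCT1), a serine and alanine carrier with a mean of 6.79, passed in no comparison.

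Slc1a1 (EAAC1), a carrier of glutamate, aspartate and cysteine best known in neurons and kidney, gave 6.80, 6.60 and 6.54 in CD4 cells under PBS and 7.43, 7.34 and 8.08 in nTregs under PBS. With AzaC it gave 6.88, 6.79 and 6.53 in CD4 cells and 7.23, 7.34 and 7.95 in nTregs. All nTreg arrays were above all CD4 arrays in both treatments, and the third array was the highest of its nTreg group in both. Slc1a1 was higher in nTregs by 0.97 under PBS (SE 0.21, 95% interval 0.53 to 1.41, adjusted p = 0.0102 in limma) and by 0.77 with AzaC (SE 0.21, interval 0.33 to 1.22, adjusted p = 0.036). AzaC itself moved it by 0.09 in CD4 cells and −0.11 in nTregs, neither of which passed. The PBS call held in all 19 alternatives. The AzaC call was lost in 6: without CD4 PBS array 2 (adjusted p = 0.0514), CD4 AzaC array 1, 2 or 3 (0.0746, 0.073 and 0.144), or nTreg AzaC array 2 or 3 (0.0601 and 0.167, the last with a difference of 0.55).

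Slc7a7 (y+LAT1), a light chain that exports arginine and lysine and is known from kidney, gut and macrophages, gave 6.74, 7.19 and 6.75 in CD4 cells under PBS and 7.64, 7.33 and 8.13 in nTregs. With AzaC it gave 6.75, 6.77 and 6.82 in CD4 cells and 7.65, 7.32 and 7.66 in nTregs. The nTreg arrays were again all above the CD4 arrays in both treatments. Slc7a7 was higher by 0.80 under PBS (SE 0.18, 95% interval 0.42 to 1.19, adjusted p = 0.014 in limma) and by 0.77 with AzaC (SE 0.18, interval 0.38 to 1.16, adjusted p = 0.0193). The PBS call was lost without CD4 PBS array 1 (adjusted p = 0.0591) or 3 (0.0645) and with only the groups compared (0.0994). The AzaC call was lost without CD4 AzaC array 1, 2 or 3 (0.0778, 0.0551 and 0.0546) or nTreg AzaC array 1 or 3 (0.0838 and 0.0875). The CD4 values of both genes lie under 7.37, in the range of the genes of other tissues, and their nTreg values lie around it. Beside these results, the myeloid marker average was 6.87 to 7.05 in CD4 cells and 7.06 to 7.12 in nTregs under PBS, and 6.76 to 6.88 and 6.53 to 6.76 with AzaC. The CD8 average was 8.46 to 8.55 in CD4 cells and 8.35 to 8.96 in nTregs under PBS, and 8.11 to 8.54 and 9.62 to 9.75 with AzaC. The part of either marker list in these differences was not tested.

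**Figure D4:**
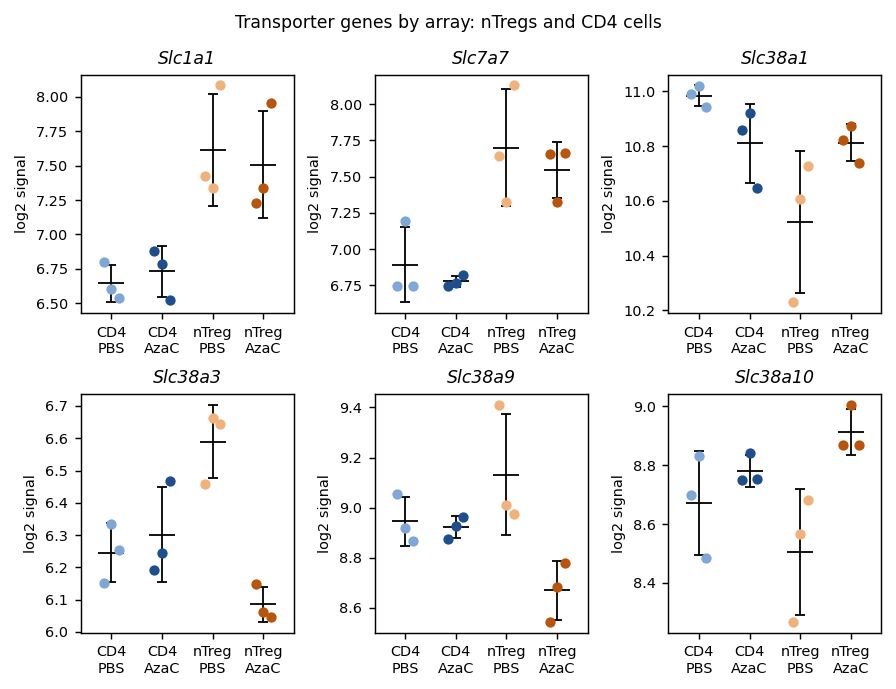
Log2 signal (vertical axis) of 6 transporter genes on each array, by group; points are arrays, horizontal lines are means and bars are 1 SD (3 arrays). Slc1a1 and Slc7a7 lie higher in nTregs under both treatments, Slc38a1 is lowest in nTregs under PBS, and Slc38a3 and Slc38a9 are lowest in nTregs with AzaC.

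The promoter windows of Slc1a1 and Slc7a7, each called higher in nTregs, are printed for comparison, with CpG in capitals as above. Whether the genes are regulated together was not tested. Slc1a1 has 1 annotated start, at chr19:28834885-28835184 on the plus strand, and its 32 CpG sites put it at percentile 91.4 of all windows. Slc7a7 has 5 annotated starts on the minus strand of chromosome 14. The farthest upstream, at chr14:54417895-54418194, has 9 CpG sites and 2 matches of the response element core, and only this window is printed. The other Slc7a7 windows have 5 to 13 CpG sites and 0 or 1 match each.
Slc1a1: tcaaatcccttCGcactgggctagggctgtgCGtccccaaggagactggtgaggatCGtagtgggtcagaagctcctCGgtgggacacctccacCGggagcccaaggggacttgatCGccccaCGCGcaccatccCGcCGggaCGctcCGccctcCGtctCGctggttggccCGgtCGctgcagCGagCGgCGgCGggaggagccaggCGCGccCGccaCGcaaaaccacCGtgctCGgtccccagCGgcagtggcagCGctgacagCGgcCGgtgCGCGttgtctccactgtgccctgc
Slc7a7: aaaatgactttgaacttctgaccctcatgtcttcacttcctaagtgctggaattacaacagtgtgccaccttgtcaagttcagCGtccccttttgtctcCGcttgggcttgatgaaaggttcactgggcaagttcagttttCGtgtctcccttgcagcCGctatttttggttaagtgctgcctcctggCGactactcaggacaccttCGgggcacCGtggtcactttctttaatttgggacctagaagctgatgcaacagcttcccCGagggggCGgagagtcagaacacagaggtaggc
The printed windows differ in how densely CpG sites stand, and neither holds the E-box.

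The other glutamate carriers, Slc1a2, Slc1a3, Slc1a6 and Slc1a7, had means of 5.38 to 7.34 and passed in no comparison. Slc1a7, a transporter of the retina, differed by 0.34 (SE 0.12, adjusted p = 0.208 in limma) between AzaC and PBS in CD4 cells and by −0.15 in nTregs. Slc1a3 was lower in nTregs than in CD4 cells with AzaC by a log2 difference of −0.33 without overlap (adjusted p = 0.131), which did not pass.

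**Figure D5:**
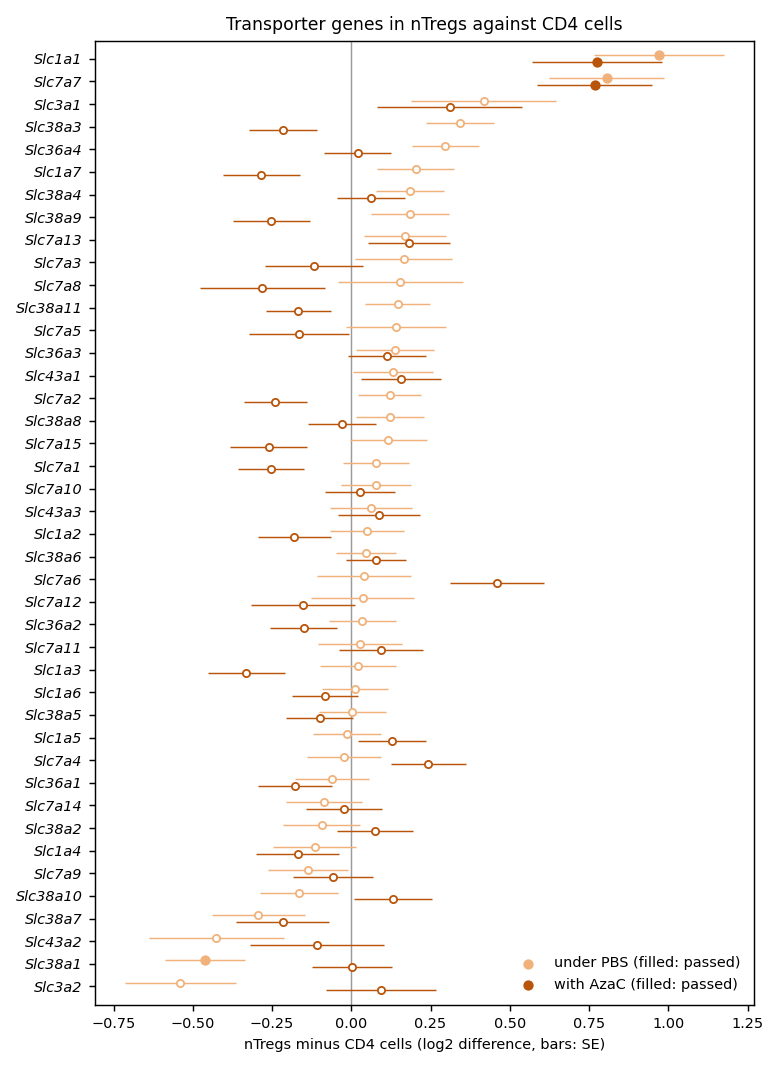
Log2 difference nTregs minus CD4 cells (horizontal axis) of the 42 transporter genes under PBS and with AzaC, ordered by the PBS difference; bars are 1 SE and filled points passed. Slc1a1 and Slc7a7 passed under both treatments and Slc38a1 under PBS, where Slc3a2 has the lowest difference (−0.54) without passing.

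The proton-coupled carriers of the Slc36 family move small amino acids out of lysosomes and across the plasma membrane, and Slc36a1 and Slc36a4 have been linked to mTORC1. None of the 4 passed in limma, and 1 had an unadjusted p under 0.05 in CD4 cells with AzaC and 1 between the populations under PBS, Slc36a4 in both. Slc36a4 gave 12.15, 12.08 and 11.91 in CD4 cells under PBS and 12.20, 12.32 and 12.43 with AzaC, a difference of 0.27 without overlap (SE 0.11, adjusted p = 0.241). In nTregs it gave 12.40, 12.41 and 12.22 under PBS and 12.30, 12.34 and 12.38 with AzaC, which overlap. Its second row, with a mean of 8.60, told otherwise: 0.01 in CD4 cells and 0.60 in nTregs (SE 0.15, adjusted p = 0.0574 in a limma fit of all rows). No single response can therefore be given for Slc36a4. Slc36a1 had a mean of 9.03 and AzaC differences of 0.06 in CD4 cells and −0.06 in nTregs, and Slc36a2 and Slc36a3 had means of 6.84 and 6.19.

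Of the Slc43 family, Slc43a3 gave 9.89, 9.93 and 9.76 in CD4 cells under PBS and 10.09, 10.36 and 10.32 with AzaC. In nTregs it gave 9.74, 9.82 and 10.20 under PBS and 10.42, 10.38 and 10.22 with AzaC. Treated arrays were above controls in both populations, in nTregs by only a small gap. The differences of 0.40 in CD4 cells (SE 0.13, adjusted p = 0.159 in limma) and 0.42 in nTregs (SE 0.13, adjusted p = 0.122) did not pass singly. Averaged over the populations, Slc43a3 rose by 0.41 (SE 0.09, 95% interval 0.21 to 0.60, adjusted p = 0.0231), and this call was lost in 6 of 18 alternatives, each of which leaves out 1 array: CD4 PBS array 3 (0.0548), CD4 AzaC array 2 or 3 (0.0617 and 0.0637), nTreg PBS array 2 (0.0518), or nTreg AzaC array 1 or 2 (0.0657 and 0.0648). In the same average, Slc7a5 rose by 0.75 (SE 0.11, adjusted p = 0.00146) and Slc7a1 by 0.42 (SE 0.07, adjusted p = 0.0043), and both held in all 18. The leucine carriers Slc43a1 (LAT3, mean 7.74) and Slc43a2 (LAT4, mean 8.82) passed in no comparison. Slc43a2 gave 7.91 on the first nTreg PBS array against 8.66 to 9.13 on the other 11.

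The antisense-named genes gave means of 8.17 (Slc7a6os) and 5.40 (Slc36a1os) and passed in no comparison. Their AzaC differences were −0.18 and −0.14 in CD4 cells and −0.08 and −0.18 in nTregs.

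Genes that use or sense the imported amino acids were counted in 7 lists. Of 11 measured enzymes of serine, glycine, proline and one-carbon metabolism, AzaC raised 4 in nTregs and 2 in CD4 cells in limma and lowered 0, where 2.02% and 1.76% of all genes were called. The list medians were 0.46 and 0.12, against −0.04 and 0.01 over all genes. Mthfd1, which interconverts folate one-carbon units, gave 7.78, 8.18 and 8.68 in nTregs under PBS and 9.10, 9.06 and 9.15 with AzaC, and in CD4 cells 8.26, 8.19 and 8.38 against 9.12, 9.11 and 9.07. It rose by 0.89 (SE 0.17, adjusted p = 0.0129) in nTregs and by 0.82 (SE 0.17, adjusted p = 0.0223) in CD4 cells, without overlap in either. Shmt1, the cytosolic serine hydroxymethyltransferase, rose by 0.47 and 0.53, and in nTregs Aldh18a1, of proline synthesis, rose by 0.69 and Psat1, of serine synthesis, by 0.54. Each of these calls was lost in 4 to 11 of 19 alternatives, mostly those that left out 1 array. In the average over the populations 4 passed, where 3.71% of all genes were called. Among them was Phgdh, the first enzyme of serine synthesis, at 0.54 (SE 0.13, adjusted p = 0.0313 in limma), a call lost in 8 of 18 alternatives. Without the first nTreg PBS array, Psat1 (0.54, adjusted p = 0.0558) and Aldh18a1 (0.57, 0.111) no longer passed in nTregs.

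Of 17 measured genes of glutamine, glutamate, branched-chain and arginine metabolism, AzaC raised 2 in nTregs (Odc1 and Asl) and 0 in CD4 cells, where 2.02% and 1.76% of all genes were called and 4 and 7 list genes stood at an unadjusted p under 0.05. Odc1, which makes putrescine from the ornithine that arginine yields, gave 7.54, 8.18 and 8.15 in nTregs under PBS and 9.52, 9.96 and 9.31 with AzaC. It rose by 1.64 (SE 0.21, adjusted p = 0.00129 in limma), in all 19 alternatives. In CD4 cells, 7.63, 7.42 and 6.95 stood against 7.82, 8.18 and 8.08, a difference of 0.69 without overlap that did not pass (adjusted p = 0.131), and the responses differed by 0.95 (SE 0.30, adjusted p = 0.194). Asl, of arginine synthesis, rose by 0.46 (adjusted p = 0.047), a call lost in 15 of 19 alternatives, the first nTreg PBS array left out among them (0.38, adjusted p = 0.105). Between populations, Glud1, the glutamate dehydrogenase, was higher in nTregs by 0.58 under PBS, lost in 2 of 19 alternatives, and by 0.65 with AzaC, lost in 0. With AzaC 4 more of the 17 passed, where 6.75% of all genes were called, among them Odc1 at 1.57, lost in 0 of 19, and Oat, an ornithine enzyme, at 0.56, lost in 4.

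In the list of Atf4 and its targets (20 of 20 measured), 0 passed with AzaC in nTregs and 0 in CD4 cells by limma, with 6 and 5 at an unadjusted p under 0.05, against 3720 and 3375 of 22180 genes. Atf4 differed by −0.04 in nTregs and 0.03 in CD4 cells, Ddit3 by 0.01 and 0.21, Asns, the asparagine synthetase, by 0.35 and 0.10, and Chac1 by −0.10 and −0.05. Trib3 differed by −0.47 in nTregs (SE 0.13, adjusted p = 0.091) and 0.01 in CD4 cells. Sesn2 gave 8.43 on the first nTreg PBS array against 10.56 and 10.69 on the others, and its differences of 0.89 and 0.67 (SE 0.41 for each) did not pass. Myc, which drives transporter genes in activated T cells, differed by 0.01 in nTregs (95% interval −0.26 to 0.28) and −0.16 in CD4 cells (−0.43 to 0.11). In nTregs against CD4 cells under PBS, 4 of the 20 were higher, Nupr1 by 0.65, Vldlr by 0.65, Stc2 by 0.43 and Cebpb by 0.41, where 8.01% of all genes were called. Nupr1 held in all 19 alternatives, while Stc2 was lost in 5 and Vldlr and Cebpb in 12 each. The last pair was lost also without the first nTreg PBS array (adjusted p = 0.14 for Vldlr and 0.0546 for Cebpb). The averaged response passed for Eif2ak3 (0.35), lost in 10 of 18 alternatives, and Vldlr (−0.55), lost in 9 and at −0.35 (adjusted p = 0.0784) with array weights.

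Of 17 cytosolic aminoacyl-tRNA synthetases, 0 passed with AzaC in nTregs, with 9 at an unadjusted p under 0.05, against 3720 of 22180 genes. All 17 differences were positive, against 9299 of 22180, with a median of 0.25, against −0.04 over all genes. In CD4 cells 0 passed, with 2 at an unadjusted p under 0.05, against 3375 of all genes, and a median of 0.07. In nTregs against CD4 cells under PBS, 14 of the 17 differences were negative and 3 positive, with a median of −0.27 against 0.03 over all genes. With AzaC, 10 were positive and 7 negative, with a median of 0.02 against −0.04. The nTreg PBS arrays, the first among them, enter both the AzaC comparison in nTregs and the PBS comparison. Under PBS, where 8.01% of all genes were called, Farsb (−0.40), Cars (−0.36) and Qars (−0.53) were lower in nTregs. These calls were lost in 4, 5 and 8 of 19 alternatives, and without the first nTreg PBS array Farsb (−0.37, adjusted p = 0.0502) and Qars (−0.34, 0.0844) did not pass. Of 14 genes of cysteine and glutathione metabolism, 0 passed with AzaC in either population. Unadjusted p-values under 0.05 numbered 2 in each, against 3720 of 22180 genes in nTregs and 3375 in CD4 cells. Gpx4, the lipid peroxide reductase, was higher in nTregs with AzaC (0.55) in all 19 alternatives. Nfe2l2 was lower in nTregs under PBS (−0.35, adjusted p = 0.0496), a call lost in 14 of 19, the first nTreg PBS array left out among them (−0.31, 0.11).

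Of 28 genes of amino acid sensing by mTORC1, AzaC raised Rragb (0.91) and Wdr59 (0.48) in nTregs and lowered Rragd in CD4 cells, where 2.02% and 1.76% of all genes were called. Of 19 alternatives, Rragb was lost in 5, Wdr59 in 13 and Rragd in 4, and without the first nTreg PBS array Wdr59 stood at 0.37 (adjusted p = 0.0939). Rragd, a Rag GTPase that brings mTORC1 to the lysosome, gave 7.72, 7.41 and 7.70 in CD4 cells under PBS and 6.81, 7.17 and 6.73 with AzaC, and in nTregs 8.07, 8.57 and 8.38 against 8.75, 8.88 and 8.99. Its CD4 values with AzaC lie under 7.37, in the range of the genes of other tissues. It fell by 0.71 in CD4 cells (SE 0.15, adjusted p = 0.0295 in limma), while in nTregs the difference was 0.53 (adjusted p = 0.093). The difference between these responses, 1.24 (SE 0.21, adjusted p = 0.0356), was the only one of any list here to pass. Between populations Rragd was higher in nTregs by 0.73 under PBS and by 1.97 with AzaC, in all 19 alternatives. Also higher in nTregs were Fnip2 (0.65) under PBS and Wdr59 (0.72), Lamtor4 (0.49) and Sesn1 (0.47) with AzaC. Lower under PBS were Depdc5 (−0.52) and Sesn3 (−0.47). Rragd included, 4 of the 28 passed between the populations under PBS and 4 with AzaC, where 8.01% and 6.75% of all genes were called. Wdr59 held in all 19 alternatives, while Lamtor4 was lost in 1, Depdc5 in 4, Sesn3 in 9, Sesn1 in 11 and Fnip2 in 13. Without the first nTreg PBS array, Depdc5 stood at −0.38 (adjusted p = 0.0509), Sesn3 at −0.37 (0.116) and Fnip2 at 0.52 (0.132).

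Amino acid carriers of other families were measured for 26 of 28 listed genes. With AzaC, 1 rose in nTregs and 1 fell in CD4 cells, where 2.02% and 1.76% of all genes were called. Between the populations 5 differed under PBS and 2 with AzaC, where 8.01% and 6.75% of all genes were called. Slc15a3, a lysosomal carrier of histidine and small peptides, gave 7.18, 7.17 and 7.17 in nTregs under PBS and 7.72, 7.76 and 8.15 with AzaC, and rose by 0.70 (SE 0.14, adjusted p = 0.0225 in limma), a call lost in 4 of 19 alternatives. It was higher in nTregs than in CD4 cells by 0.72 under PBS and 1.23 with AzaC. Its nTreg values under PBS lie under 7.37, in the range of the genes of other tissues. Slc6a19, the neutral amino acid carrier of gut and kidney, gave 7.83, 8.09 and 7.78 in CD4 cells under PBS and 7.24, 7.23 and 7.38 with AzaC. It fell by 0.62 (SE 0.11, adjusted p = 0.00817) and was lower in nTregs under PBS (−0.80). Its CD4 values with AzaC lie around 7.37, and its nTreg mean under PBS lies under 7.37, in the range of the genes of other tissues. The mitochondrial aspartate and glutamate carriers split under PBS: Slc25a12 was lower in nTregs (−0.92, SE 0.16, adjusted p = 0.00224) and Slc25a13 higher (0.56, adjusted p = 0.0383), the latter lost in 8 of 19 alternatives. Slc25a2, a mitochondrial ornithine carrier, was lower under PBS (−0.54, adjusted p = 0.0469), a call lost in 10 of 19. Slc16a10, a carrier of aromatic amino acids, was lower in nTregs with AzaC (−0.51, adjusted p = 0.0317), a call lost in 6 of 19.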

How the data were processed

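Per the submitters' processing notes, the authors made the deposited log2 values with RMA in Affymetrix Expression Console; versions and genome build are not given in the sources used here. The table has 41345 rows; 23521 carried exactly 1 gene symbol in the array's annotation and gave 22180 genes, the brightest row standing for a gene with several (4 members). No dim genes were left out. All 12 arrays entered 1 linear model of the 4 groups in limma 3.58.1 (R 4.3.3, statmod 1.5.0 for blocks), with 8 residual and 5.95 prior degrees of freedom, and p-values were adjusted by Benjamini-Hochberg over all genes in each comparison. With 3 arrays per group, the median SE was 0.13 (0.18 for the difference between responses), which limits precision. The code was tested on simulated data. Members in every array were those called in any comparison and a preset group; other genes named were up to 4 called per list and comparison, and 8 always given. Slc25a2 and marker genes were named outside that rule. The members and lists were chosen with earlier results of these data known. Same-numbered arrays of different groups correlated over 0.1 in 3 of 18 pairs, so numbers were not taken as pairs. Alternatives left out the dimmest 25% of genes, centred the arrays, took the mean over a gene's rows, weighted the arrays, used a variance trend, fitted only the compared groups, added a replicate block, or left out each array in turn.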

Additional observations from a re-analysis of the deposited data

Results flagged for a closer look

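Rragd, a Rag GTPase of amino acid sensing by mTORC1, is set apart because its AzaC response differed between the populations by a test of that difference: the log2 response in nTregs minus that in CD4 cells was 1.24 (SE 0.21, adjusted p = 0.0356 in limma). It was lost in 8 of 18 alternatives, each of which leaves out 1 array, with adjusted p-values up to 0.125. The Rragd values of CD4 cells with AzaC lie under 7.37, in the range of the genes of other tissues. No transporter gene passed this test.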

How the results depend on the processing

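No called value changed its sign under the alternatives. Under array weights 5 transporter genes passed in nTregs with AzaC (1 in the main fit), 1 in the difference between responses (0), and 5 and 6 between the populations under PBS and with AzaC (3 and 2). With only the compared groups fitted, 0 passed in nTregs and 1 between the populations under PBS, and with arrays centred 0 passed in nTregs. Leaving out single arrays gave 0 to 1 in nTregs with AzaC, 1 to 2 in CD4 cells, 1 to 4 between the populations under PBS and 0 to 3 with AzaC, and 2 to 3 in the averaged response. With a replicate block 2 passed in nTregs, and the numbers are only shared numbers. The shares of all genes called under each alternative are not set beside these counts. The counts are therefore not read as a result about transporters. In nTregs Slc7a5 passed with array weights, with the block and without the second PBS array. The causes were not tested. With 3 arrays per group and a median SE of 0.13, small changes were not detectable, and signals in the range of silent genes may understate a change.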
